A study of Mus musculus with 12 samples.

Results

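Acetylation of histone H4 at lysine 12 (H4K12ac) in neuronal nuclei of aged mice was compared between animals given SAHA and animals given vehicle, position by position around the transcription start site (TSS). The comparison rests on 4 of the 12 libraries of the series, taken by their labels: 1 H4K12ac chromatin immunoprecipitation (ChIP-seq) library and 1 input library from each treatment. All 4 came from neuronal nuclei of wild-type mice of the strain C57B/6JRj, aged 20 months. The vehicle was water with 18 g/L cyclodextrin, and SAHA was given in the same solution at 0.67 g/L, by the oral route for 4 weeks. Both groups therefore received cyclodextrin, and no aged mouse without it was part of the comparison. Neuronal and non-neuronal nuclei of mice aged 3 months given vehicle serve below only to show where the neuronal profiles differ. So do non-neuronal nuclei of the aged mice under the same treatments. The column names in the files give the region as CA1, which is part of the hippocampus. The sources used here do not say how many animals stand behind a library or how neuronal nuclei were separated. The files hold no values per gene, so the neuronal label could not be checked against marker genes.

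Acetyl groups are placed on lysine 12 of histone H4 by histone acetyltransferases and removed by histone deacetylases, and the mark is found on the nucleosomes of active promoters and at the start of the transcribed region. SAHA (vorinostat) is a hydroxamic acid that blocks zinc-dependent histone deacetylases, so cells exposed to it usually carry more acetylated histone. H4K12ac in the hippocampus is known from work on memory and ageing in mice.

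Each library is 1 curve, the mean signal over many start sites at 4001 positions from -2000 to 2001 bp around the TSS. Negative positions are upstream, on the promoter side, and positive ones lie within the transcribed region. All signals below are the deposited values multiplied by 1000. With 1 library per side there is no spread between animals or preparations, no test was possible, and the values describe these libraries. A 95% counting interval is given for the differences between window means. It covers only the error of counting reads, which was 0.0792% of the mean within 500 bp of the TSS in the vehicle ChIP library and 0.0850% in the SAHA one. A curve averaged over start sites cannot tell a small gain at many genes from a large gain at few, nor fewer acetylated nuclei from less acetylation per nucleus.

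H4K12ac around the TSS was higher in the SAHA library than in the vehicle library, and the difference was greatest just inside the transcribed region. At the TSS itself, at position 1, the signal was 11.3 with SAHA and 9.79 with vehicle. At position 100 it was 13.2 and 11.3, and at position 200 it was 14.2 and 12.2. The proportional difference reached its highest value, 16.9%, at position 109. The absolute difference reached 2.03 at position 195, close to the summits of the 2 profiles at positions 225 and 228. Both measures place the greatest difference within the first 200 bp of the transcribed region. Reads were counted over 300 bp, so the curves cannot assign it to 1 nucleosome.

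**Figure D1:**
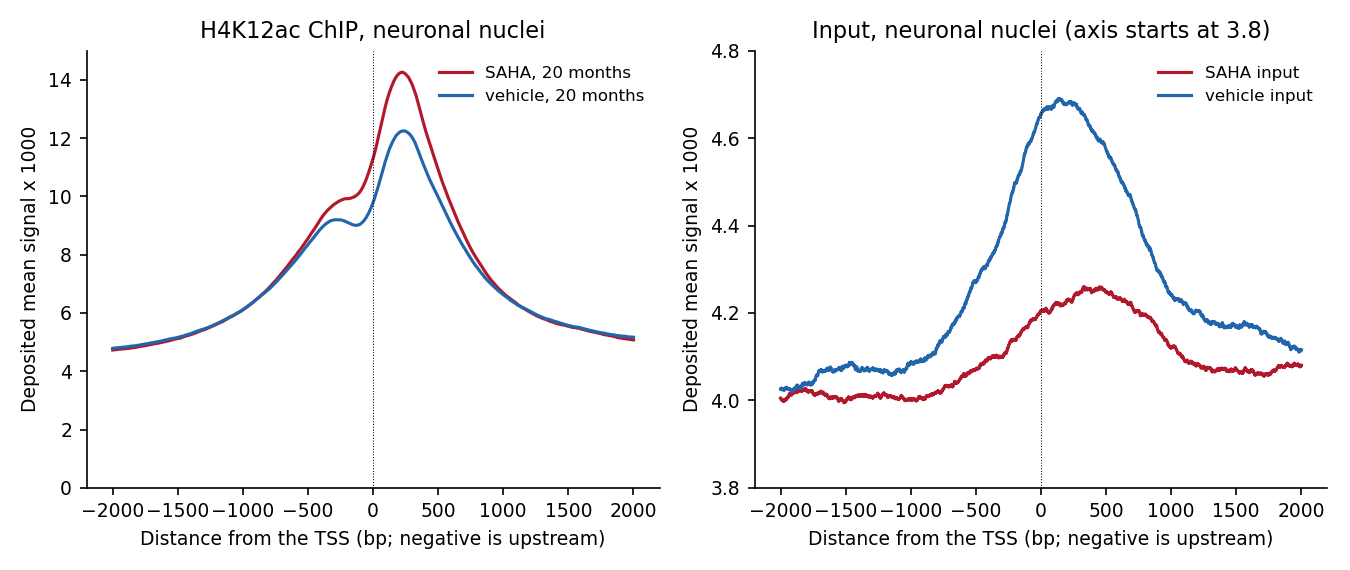
Mean signal (deposited value multiplied by 1000) against distance from the TSS in bp, for the H4K12ac libraries (left) and the input libraries (right) of neuronal nuclei at 20 months; each line is 1 library, and the right axis starts at 3.8. The SAHA ChIP profile peaks at 14.3 and the vehicle profile at 12.3, while the vehicle input peaks at 4.69 and the SAHA input at 4.26.

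The difference was local. The SAHA signal was higher at 51.1% of positions, nearly all of them in 1 unbroken run from -895 to 1128 and the rest just upstream of it. It was lower at the other 48.9% of positions, with -1.87% at position 1992 as the lowest value. Between -935 and -895 the 2 curves crossed 13 times. They could not be told apart by counting error over a wider stretch, in the bins of 100 bp from -1300 to -801. Downstream they crossed once, after position 1128. An excess of over 5% was seen at 1043 of the 4001 positions (26.1%), all between -328 and 715, and an excess of over 10% at 650 positions (16.2%), all between -166 and 484. No position was lower with SAHA by over 5%.

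In bins of 100 bp the same course appeared with its counting error. The bin from 101 to 200 bp had a mean of 13.8 with SAHA and 11.8 with vehicle, an excess of 16.7%. The SAHA signal was 16.3% higher in the first 100 bp of the transcribed region and 14.1% higher in the 100 bp before the TSS. The excess faded faster on the promoter side. It was 10.5% from -200 to -101, 7.29% from -300 to -201 and 3.12% from -500 to -401. On the transcribed side it was 16.0% from 201 to 300 bp, 13.9% from 301 to 400 bp and 11.2% from 401 to 500 bp. Of 40 bins, 19 had a counting interval above 0, and these ran without a gap from -800 to 1100. Another 14, all further out, had an interval below 0, with differences of -1.58% to -0.562%, and 7 had one that held 0. Those 7 bins lay from -1300 to -801, from 1101 to 1200 and from 1501 to 1600. The counting intervals leave out any variation between preparations, so they do not show that the small deficits at the edges would recur.

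By regions of 500 bp, the excess was 14.9% in the first 500 bp downstream (95% counting interval 14.5% to 15.2%), where the signal was 13.0 with SAHA and 11.3 with vehicle. In the 500 bp upstream it was 8.03% (7.68% to 8.38%), from 9.05 with vehicle to 9.78 with SAHA. From 501 to 1000 bp downstream it was 4.94%, with signals of 8.42 and 8.02. The matching region upstream, -1000 to -501, was 1.09% higher with SAHA, with signals of 7.18 and 7.11. The outermost regions were slightly lower with SAHA, at -1.08% upstream (signals of 4.90 and 4.95) and -0.892% downstream (5.29 and 5.34), beyond their counting error.

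Summed over all positions, the transcribed side held 73.5% of the net difference between the SAHA and vehicle signals, and the promoter side 26.5%. Within 500 bp of the TSS lay 87.9%, made up of 61.4% downstream and 26.5% upstream. The regions from 501 to 1000 bp added 14.5% downstream and 2.82% upstream. Positions further out took away 2.86% upstream and 2.36% downstream.

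**Figure D2:**
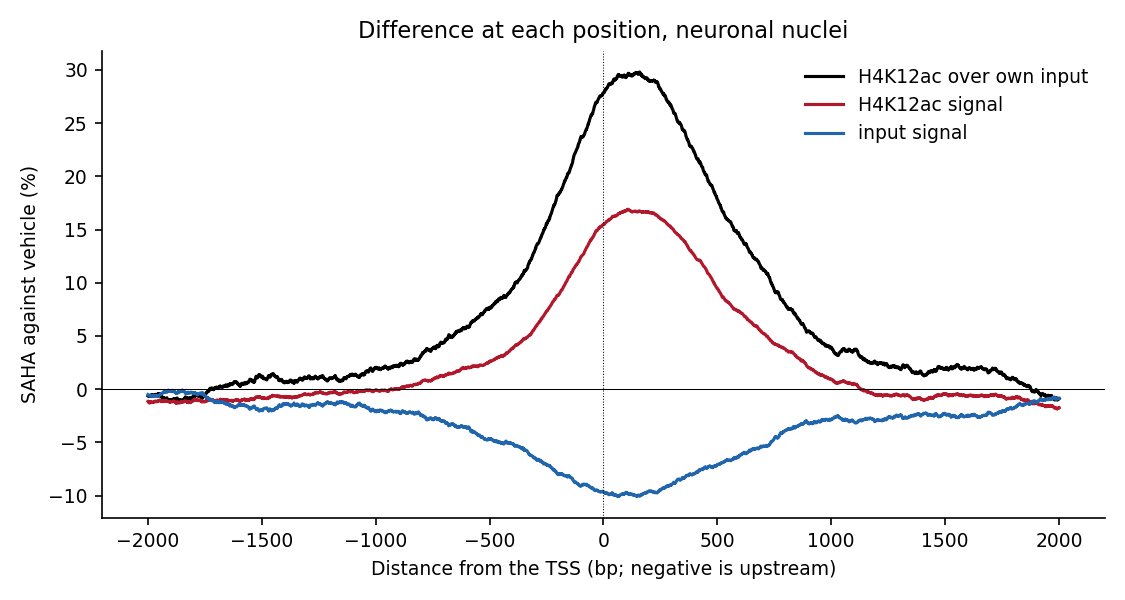
Difference of SAHA against vehicle in percent at each position, against distance from the TSS in bp, for the H4K12ac signal, for the input signal and for H4K12ac divided by its own input, in neuronal nuclei at 20 months. The H4K12ac difference peaks at 16.9%, the input difference reaches -10.1% close to the TSS, and the difference over own input peaks at 29.8%.

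The input libraries, sonicated chromatin sequenced without antibody, also differed, and in the opposite direction. The SAHA input was below the vehicle input at all 4001 positions. At position 1 it was 4.20 against 4.65, and at position 200 it was 4.23 against 4.68. The difference was -10.1% at its lowest, at position 65, with 29.6% of positions lower by over 5%, and -0.911% in the region from -2000 to -1501. The vehicle input climbed 14.6% above its own flank (the outermost 400 positions on each side) and peaked at position 141, where the SAHA input climbed 5.38% and peaked at 331. The input difference was broader than the ChIP difference. It was past the midpoint between 0 and its extreme from -408 to 733, a stretch of 1141 bp, and the proportional ChIP difference from -211 to 531, over 742 bp.

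Of the inputs in the series, the aged vehicle neuronal one stood apart from the other neuronal ones. Within 500 bp of the TSS it was 9.81% above the young neuronal input, while the SAHA input was 0.925% above it. The young and SAHA inputs lay within 1% of each other at 79.6% of positions, and the young and aged vehicle inputs at 6.95%. In the young and the SAHA animals the non-neuronal input rose more over its flank than the neuronal one (8.68% and 2.71%, then 12.4% and 3.44%). In the aged vehicle animals the order was the other way round, with 2.00% in the non-neuronal input and 11.2% in the neuronal one. Whether the 2 aged vehicle inputs were exchanged between the populations was not tested, and every value over own input below rests on the labels as given.

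Divided by own input, H4K12ac was further apart between the treatments than in the ChIP signal alone. At position 150 the SAHA library stood 3.29-fold over its input and the vehicle library 2.53-fold. At position 500 the folds were 2.57 and 2.18, and at position -500 they were 2.10 and 1.95. The difference was highest at position 159, at 29.8%, against 16.9% for the signal alone. It lay above 0 at 89.9% of positions, nearly all of them in a run from -1709 to 1877, and 39.7% of positions were higher with SAHA by over 5%. In the first 500 bp downstream the vehicle library stood 2.43-fold and the SAHA library 3.07-fold over input, which is 0.34 apart on the log2 scale (0.33 to 0.35 by counting error). In the 500 bp upstream the folds were 2.04 and 2.37, which is 0.22 apart (0.21 to 0.23).

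The size of the difference within 500 bp of the TSS followed the input that was used. With each library's own input the log2 difference was 0.28, and for the ChIP signal alone it was 0.16. With the mean of the neuronal SAHA and vehicle inputs for both libraries it was also 0.16, since a shared input nearly cancels. With the vehicle library set over the non-neuronal vehicle input instead, it was 0.14, so the value fell from 0.28 when the input that stood apart was replaced. With the neuronal inputs exchanged between the treatments it was 0.037, and with the non-neuronal input of the same treatment under each library it was -0.026. The direction was therefore positive with the libraries' own inputs and without any input, and it turned with the inputs of the other population. Subtracting the input left a signal of 5.63 in the vehicle and 7.20 in the SAHA library, 0.36 apart on the log2 scale.

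**Figure D3:**
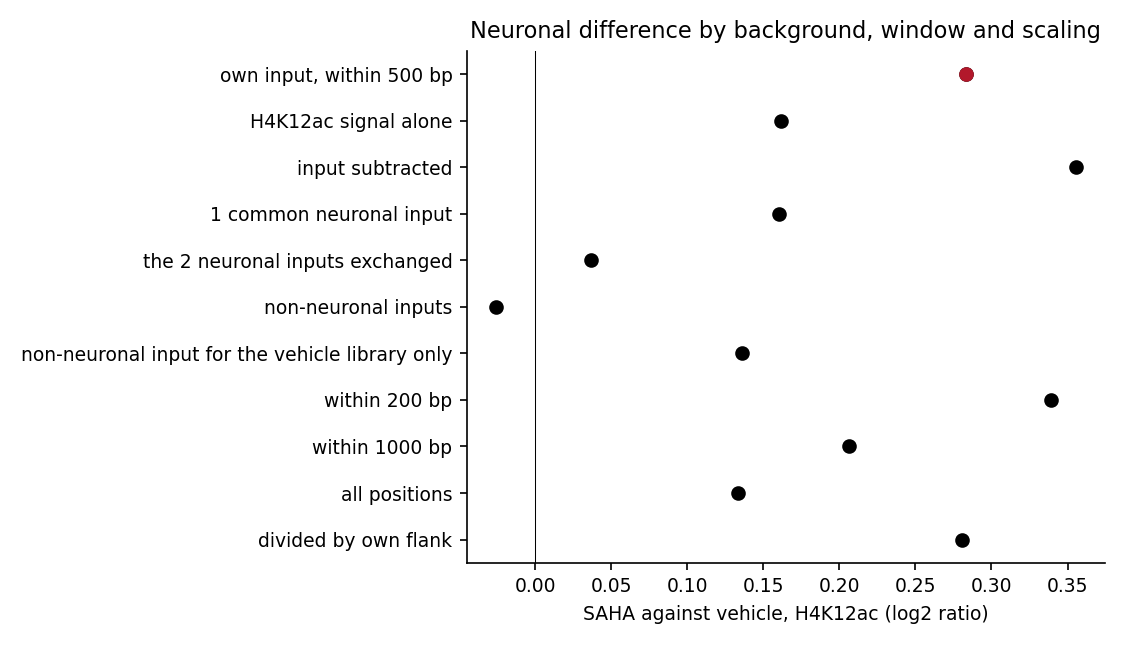
Log2 ratio of SAHA to vehicle H4K12ac in neuronal nuclei for 11 choices of input, window and scaling, 1 point each, with own input within 500 bp at the top in red. The points run from -0.026 with the non-neuronal inputs to 0.36 with the input subtracted, and 1 of them lies below 0.

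The profiles also differed in height and shape. The SAHA profile rose from a flank of 5.05 to its maximum of 14.3, a height of 9.21. The vehicle profile rose from 5.10 to 12.3, a height of 7.15. The flanks thus differed little, while the maximum was 2.83 times the flank with SAHA and 2.40 times with vehicle. Midway between flank and maximum the SAHA profile was 922 bp wide, from -318 to 604, and the vehicle profile 1084 bp, from -441 to 643. The width thus differed by -162 bp with SAHA (95% counting interval -176 to -148 bp), with most of the change on the promoter side. At a fixed signal the order depended on the level: the SAHA profile differed in width from the vehicle profile by -16 bp at a signal of 6, by 74 bp at 8 and by 231 bp at 10. It was above 10 from -139 to 573 and the vehicle profile from 17 to 497.

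On the promoter side the vehicle profile held a larger share of its own height. At -500 bp it was at 45.3% of the way from flank to maximum, and the SAHA profile at 38.1%. At -300 bp the shares were 57.3% and 50.8%. Closer to the TSS they met, at 55.2% and 55.6% at -100 bp, and at the base before the TSS the SAHA profile was ahead, at 67.8% against 65.5%. After a moving mean over 51 positions, the vehicle profile had an upstream maximum of 9.20 at -278 and a dip to 9.02 at -133, which is 1.98% lower. The smoothed SAHA profile had no such maximum and rose without a dip to its summit. In this stretch, where promoters often have a nucleosome-depleted region, the vehicle signal went from 9.20 at -300 bp to 9.05 at -100 bp, and the SAHA signal from 9.73 to 10.2. The steepest climb came at nearly the same place, at position 54 with SAHA and 58 with vehicle, and was 1.98 per 100 bp against 1.59. As a share of each profile's own height the order turned, with 21.5% per 100 bp with SAHA and 22.3% with vehicle.

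**Figure D4:**
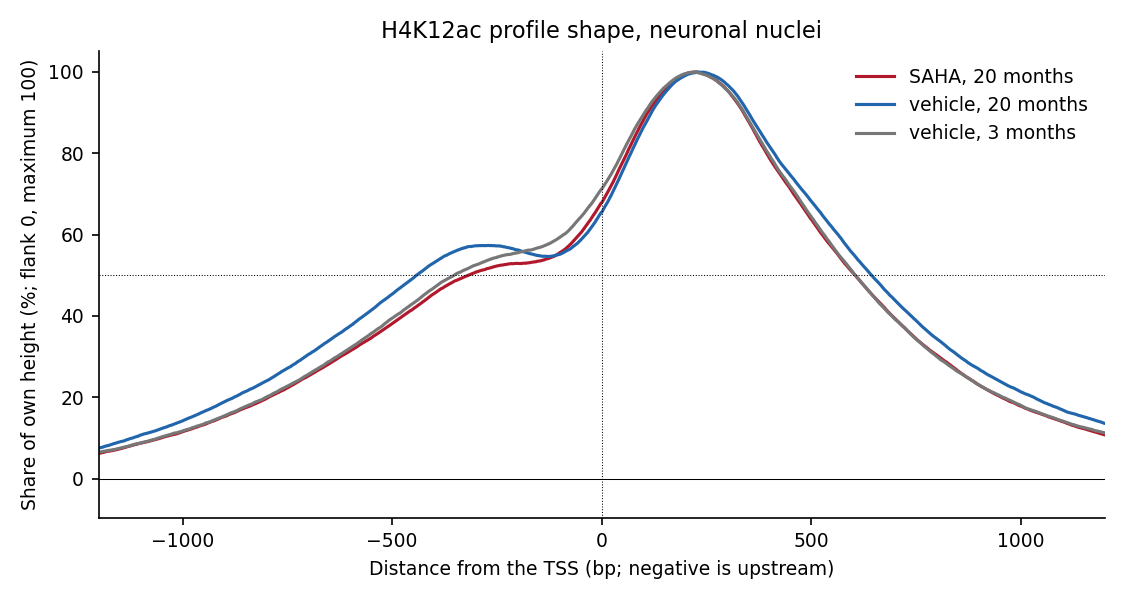
H4K12ac profiles of neuronal nuclei scaled so that each library's flank is 0% and its maximum 100%, against distance from the TSS in bp; each line is 1 library and the dotted horizontal line marks mid height. The vehicle profile at 20 months is the widest, at 1084 bp, with a shoulder upstream, while the SAHA profile (922 bp) and the profile at 3 months (956 bp) lie close together.

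The difference was uneven between the sides of the TSS even at equal distance. From 201 to 300 bp the downstream signal was 1.44 times that at the same distance upstream with SAHA and 1.33 times with vehicle. From 401 to 500 bp the ratios were 1.30 and 1.21, and in the first 100 bp 1.15 and 1.13. In all 10 pairs of bins up to 1000 bp the ratio was higher with SAHA. For the inputs the ratio was lower with SAHA at every distance, 1.03 against 1.05 from 201 to 300 bp.

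The excess also differed between places where the vehicle profile was equally high. The vehicle profile reached a signal of 9 at -376 and at 605, where the SAHA signal was higher by 4.24% and by 7.12%. It reached 8 at -561 and 732, where it was higher by 2.16% and 4.65%. At a level of 7, at -758 and 905, the values were 0.884% and 2.04%. At each of these 3 levels the downstream place had the larger excess and lay further from the TSS. Both summits lay downstream, at positions 225 and 228, so each of these downstream places was nearer to them than its upstream match. At a level of 6, at -1042 and 1230, the SAHA signal was lower on both sides, at -0.143% and -0.563%. The input differences at the places of level 9 were -5.38% and -6.18%, also further from 0 downstream.

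The young neuronal library was set beside both aged ones to place their levels. Since all 3 comparisons share libraries, they are not independent, and the values below only describe where the curves lie. In the first 500 bp downstream the signal was 13.5 at 3 months, 13.0 at 20 months with SAHA and 11.3 with vehicle. In the 500 bp upstream it was 10.3, 9.78 and 9.05. At 51.1% of positions the SAHA library lay between the other neuronal ones, and these are the same positions at which it exceeded vehicle. At the other 48.9% it lay below both. It was below the young library at all 4001 positions, by 1.32% to 5.90% in bins of 100 bp. In shape the SAHA profile was also near the young one, which was 956 bp wide and had no upstream dip after smoothing. The aged vehicle profile was nearer the 3 non-neuronal ones, which were 1131 to 1165 bp wide with dips of 0.693% to 2.57%. The smallest unit of the signal was lower in the vehicle library, at 1.52e-08 against 1.85e-08 with SAHA. It was taken as 1 read over the library's divisor, which the sources do not give. The part that this unit, or a different makeup of the nuclei, had in these differences was not tested.

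In non-neuronal nuclei the SAHA difference in ChIP signal was flatter. It was above 0 at all 4001 positions and spanned a smaller range than in neuronal nuclei, from 2.10% in the outermost bin upstream to 6.48% at 201 to 300 bp. As in neuronal nuclei, it was highest shortly after the TSS, with 6.62% at position 203. From -1000 to -501 the signal was 4.25% higher with SAHA in non-neuronal and 1.09% higher in neuronal nuclei. In the first 500 bp downstream the order turned, with 6.22% and 14.9%. The neuronal excess was the larger in 10 of 40 bins, the greatest excess being a log2 of 0.13 in the first 100 bp downstream, and the smaller in 30, down to -0.066 from 1201 to 1300 bp. The peak widths of the non-neuronal profiles were 1163 bp with SAHA and 1165 bp with vehicle, closer together than the 922 and 1084 bp of neuronal nuclei. With 1 library per group, the difference between the populations was not tested.

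**Figure D5:**
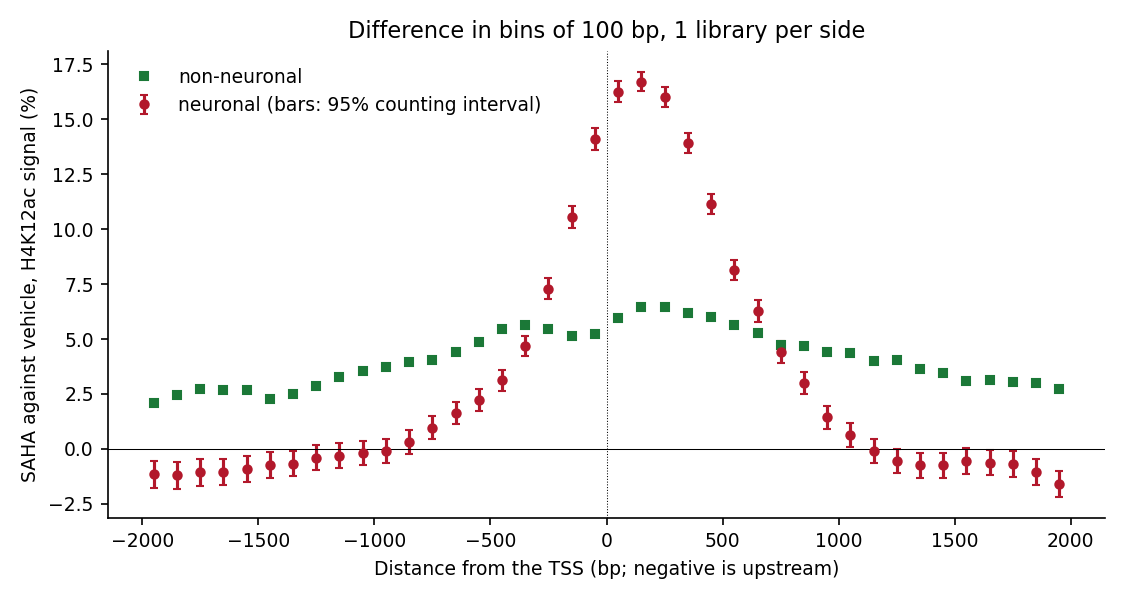
Difference of SAHA against vehicle in H4K12ac signal (percent) in 40 bins of 100 bp, against distance from the TSS in bp, in neuronal nuclei (circles, with 95% counting intervals) and non-neuronal nuclei (squares), 1 library per side. The neuronal values run from -1.58% to 16.7% with a sharp summit after the TSS, while the non-neuronal values stay between 2.10% and 6.48%.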

How the data were processed

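Each file holds a deposited signal, 1 mean per position, which the authors had normalized, per the file headers. Per the submitters' processing notes, CASAVA 1.8.2, Bowtie2 and the build mm10 were used. The sources used here do not give the divisor, the set of start sites or the handling of duplicate reads. Per the labels' protocols, chromatin was sonicated to about 300 bp, and each precipitation of 500 ng took 0.5 µg of antibody. If the divisor was the library total, more signal near the TSS would by itself lower it elsewhere. Whether this had a part in the outermost neuronal differences of -1.08% and -0.892% was not tested.

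Groups came from the labelled source, and titles tied each input to its ChIP library. The positions, regions and measures were chosen with earlier results of these data known. Neighbouring positions differed by whole multiples of 1 smallest unit (tolerance 0.1 of a unit, 100% of positions), taken as 1 read, and reads were counted over 300 bp. The counting error was derived from this unit, the length of 300 bp and an over-dispersion of 1.55 to 1.69. It is a lower limit on the true error. The method was tested on simulated data with known answers. These were drawn with independent read starts over 300 bp, as the method assumes, so they do not test that assumption. Values over own input are means over positions of ChIP divided by input. Differences are log2 ratios or percentages of vehicle. No test was made, with 1 library per group. No sequences are shown, since the curves are averages over start sites. The work was done in Python 3.11.15 with NumPy 2.4.6, and figures in Matplotlib 3.10.9.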

Additional observations from a re-analysis of the deposited data

Results flagged for a closer look

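The SAHA difference was compared between neuronal and non-neuronal nuclei in 9 windows and regions, each for the ChIP signal and over own input. These were the window within 500 bp and the 8 regions of 500 bp, and the regions next to the TSS make up that window. Directions were opposite in 12 cases, most of them over own input. With 1 library per group, none of these differences between the populations was tested. Over own input within 500 bp of the TSS, the neuronal log2 difference was 0.28 and the non-neuronal one -0.10, which are 0.39 apart. With the 2 aged vehicle inputs exchanged between the populations, an alternative chosen after the data were seen, both were above 0, at 0.14 and 0.044, so the opposite direction rests on which vehicle input is used. By region the gap over own input was 0.062 from -1000 to -501, 0.29 from -500 to -1, 0.47 from 1 to 500, 0.19 from 501 to 1000, 0.042 from 1001 to 1500 and 0.028 from 1501 to 2001, with neuronal nuclei above 0 and non-neuronal nuclei below. From -2000 to -1501 the gap was -0.0066, with neuronal nuclei below 0, where the neuronal counting interval held 0 (-0.013 to 0.0080). The non-neuronal log2 difference was 0.0044 there, -0.0019 from -1000 to -501 and -0.0070 from 1001 to 1500. No counting interval was derived for the non-neuronal differences, so the direction of such small values cannot be told. The inputs differed in opposite directions too, by a log2 of -0.12 in neuronal and 0.18 in non-neuronal nuclei within 500 bp. In that window the gap between the populations was 0.079 for the ChIP signal alone and 0.39 over own input. Why the inputs differed was not tested.

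For the ChIP signal alone the directions were opposite only in 4 outer regions, where neuronal nuclei were slightly below 0 and non-neuronal nuclei above. The gap was -0.052 from -2000 to -1501, -0.048 from -1500 to -1001, -0.060 from 1001 to 1500, where the neuronal counting interval held 0 (-0.0099 to 0.0019), and -0.056 from 1501 to 2001.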

How the results depend on the processing

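With 1 library per side, no replicate could be left out. No paired analysis was possible because each group had 1 library. A pseudocount or a filter on low values was not run, as the files hold no genes. A value counted as moved when it left the 95% counting interval of the value reported, which is narrow: of 27 alternative values, 4 stayed inside, 20 moved in the same direction and 3 reversed. The widths at a fixed signal and the non-neuronal input for the vehicle library alone were chosen after the data were seen. Within 500 bp the log2 difference over own input, 0.28, was 0.16 for the ChIP signal alone, 0.36 with input subtracted, 0.16 with 1 common neuronal input, 0.037 with the neuronal inputs exchanged, -0.026 (reversed) with the non-neuronal inputs and 0.14 with the non-neuronal input for the vehicle library only. These settings differ in which input was used or how. Over windows of 200 bp, 1000 bp and all positions it was 0.34, 0.21 and 0.13. For the ChIP signal, 0.16 within 500 bp, these windows gave 0.20, 0.11 and 0.067, and division by own flank gave 0.18. Downstream, where the signal gave 0.20, the values were 0.22 by own flank, 0.34 by own input and 0.40 with input subtracted. Upstream, where it gave 0.11, they were 0.13, 0.22 and 0.29. The width difference of -162 bp was -207 bp over own input. At a fixed signal of 6 it was -16 bp, and at 8 and 10 it was 74 and 231 bp (both reversed). The cause was not tested.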
